A study of Mus musculus with 12 samples.

Results

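Genes whose human counterparts lie at loci associated with bipolar disorder were followed in the embryonic mouse brain. They are Ank3, Tenm4, Ncan, Trank1, Syne1, Adcy2, Mad1l1, Lman2l and Shank2. They were taken by their symbols from the deposited gene and transcript tables, and make up 9 of 40690 genes and 77 of 84548 transcripts listed. The rule uses no measured value, but the genes were chosen with earlier results of these data known. All 9 were found and all 9 passed the filter on low counts. The whole brains of 12 C57BL/6J embryos, taken at embryonic day 14.5, gave 1 library each of polyadenylated RNA. In the LC1 experiment 3 embryos with LC1, a conserved non-coding element upstream of the transcription factor gene Pou3f2, deleted (LC1 knockout; embryos 7, 22 and 71) were set against 3 wild types (6, 26 and 73), all female. For RKI, homozygous carriers (A1, A10 and A18) of a human variant knocked into the same element were set against 3 wild types (A2, A9 and A16), with 1 female and 2 males in each group. The labels say that wild types and mutants were matched for sex and litter but tie no embryo to a litter, and do not say how many founders each line had. The deposited gene and transcript tables hold no entry for LC1 itself, so the genotypes could not be checked in them.

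Genome-wide association points to regions, and a gene is named for a region because it lies nearest to the signal or because its function makes it a candidate. The genes differ widely in what they do. Ank3 encodes ankyrin-G, which anchors sodium channels and adhesion proteins at the axon initial segment and holds a brain-specific giant exon. Tenm4 encodes a teneurin, a transmembrane protein that binds latrophilin receptors across cell contacts, and Ncan encodes neurocan, a chondroitin sulphate proteoglycan of the brain matrix. Syne1 encodes nesprin-1, which links the nucleus to the cytoskeleton, and Mad1l1 encodes MAD1, which recruits MAD2 to kinetochores in the spindle checkpoint. Adcy2 encodes an adenylyl cyclase that makes cyclic AMP, Shank2 a scaffold of the postsynaptic density, and Lman2l a lectin of the early secretory pathway. Trank1 encodes a large protein with tetratricopeptide and ankyrin repeats whose function is poorly known.

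Some of the genes have several start sites. Of the 9 genes, 7 have entries among the RefSeq promoters on GRCm38.p6. The 250 bases upstream are shown for Trank1, the gene that varied most between embryos, and for the start of the long 5′ transcript and of the short 3′ transcript of Syne1, which share no exon and are taken up below. Capitals mark CG dinucleotides.
Trank1, chr9:111311489-111311738, plus strand: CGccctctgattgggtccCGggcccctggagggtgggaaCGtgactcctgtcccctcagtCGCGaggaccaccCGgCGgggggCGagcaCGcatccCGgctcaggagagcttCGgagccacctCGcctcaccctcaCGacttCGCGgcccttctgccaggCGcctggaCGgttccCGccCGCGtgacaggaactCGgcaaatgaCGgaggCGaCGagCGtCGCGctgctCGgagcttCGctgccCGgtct
Syne1 5′ start, chr10:5550693-5550942, minus strand: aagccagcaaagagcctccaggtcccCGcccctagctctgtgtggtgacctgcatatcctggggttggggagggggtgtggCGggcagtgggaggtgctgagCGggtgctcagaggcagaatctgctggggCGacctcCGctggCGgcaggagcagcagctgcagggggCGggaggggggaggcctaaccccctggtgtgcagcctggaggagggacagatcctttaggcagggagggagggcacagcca
Syne1 internal start, chr10:5069064-5069313, minus strand: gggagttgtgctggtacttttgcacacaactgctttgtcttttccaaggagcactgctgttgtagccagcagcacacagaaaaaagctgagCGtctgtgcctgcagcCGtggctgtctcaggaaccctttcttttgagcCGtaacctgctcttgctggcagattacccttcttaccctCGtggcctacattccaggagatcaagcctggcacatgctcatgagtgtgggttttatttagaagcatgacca
Trank1 has 30 CG dinucleotides in this window, more than 94.1% of the 32851 RefSeq promoters, whose median is 6. The Syne1 5′ start has 7 and the internal start 4. GGGCGG, searched on both strands, stands 1 time in Trank1, 2 times at the Syne1 5′ start and 0 times at the internal start, and 32.7% of all promoters hold it. CCAAT, on both strands, stands 1 time in Trank1 and in neither Syne1 window, against 33.9% of all promoters. TATAAA was in none of the 3 windows and in 12.4% of all. A match of letters is no evidence of a bound factor.

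The libraries held 18192984 to 26566769 gene counts, so even Adcy2 had 344 to 570 counts per library, and Ank3 had 17752 to 28355. The share of counting error in the spread between embryos was not separated. CPM is the count scaled to the library size with TMM factors, and RPKM, as deposited, also divides by the length of the gene's exons. Wild type A16 stood apart: its counts differed from those of its 2 group mates by a chi-square of 11.1 to 20.3 per gene, against 3.05 to 9.96 in the 10 other pairs of a group. A16 had the highest summed CPM of 8 neural progenitor markers (2552, against 2022 to 2372 elsewhere) and the lowest of 8 neuron markers (7720, against 8146 to 9050). None of the markers of either list was at 0. Of 15 midbrain and hindbrain markers, Hoxb2 and Hoxb3, which mark the hindbrain, were at 0 in all 12 libraries. The list summed to 18.3 to 42.7 CPM, so the tissue labelled as whole brain held little RNA of these midbrain and hindbrain genes. The sums were 35.05 to 42.7 in LC1 wild types and 30.6 to 41.9 in knockouts. They were 18.3 to 26.8 in RKI wild types and 24.9 to 37.4 in homozygotes. Of 7 markers tested, 4 had an unadjusted p under 0.05 by edgeR in RKI, against 1.92% of all genes. Between the lines 4 had one, against 3.89%, and in LC1 0 had one, against 2.09%. None passed the adjusted threshold. The 8 forebrain markers summed to 1250 to 1517. In bulk tissue, fewer cells of a type and less RNA per cell cannot be told apart. Among the 9 genes, 4 were lowest in A16 and 4 in wild type 6. Wild type 6 had the highest sums of choroid plexus (879 CPM, against 633 to 864) and microglial markers (180, against 132 to 160) and the second highest of erythroid markers (1763, of 916 to 1883), with no marker of these lists at 0. The part of such cells in the results was not tested. For the gene lists, RKI values are also given without A16 and LC1 values without wild type 6, as they are for some single genes.

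Per length, Ncan was the highest of the 9 genes in every embryo and Syne1 the lowest. Ncan averaged 102 ± 5.52 RPKM over 12 embryos (SD), above 98.1% of the 16002 genes tested. Ank3 followed at 30.7 ± 2.15 and Tenm4 at 17.4 ± 1.07 RPKM. Mad1l1 (11.8 ± 0.729) and Shank2 (11.3 ± 0.633) were not ordered, since Mad1l1 was the higher in 6 of 12 embryos. Trank1 (8.06 ± 1.06) and Lman2l (7.96 ± 0.494) also overlapped, with Trank1 higher in 8 of 12. Adcy2 averaged 4.81 ± 0.382 and Syne1 1.96 ± 0.122 RPKM, and every other step in the order separated all 12 embryos of one gene from all 12 of the next. RPKM divides by all exons of a gene, 33194 bases for Ank3 and 3394 for Mad1l1, so the order depends on the gene models.

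**Figure D1:**
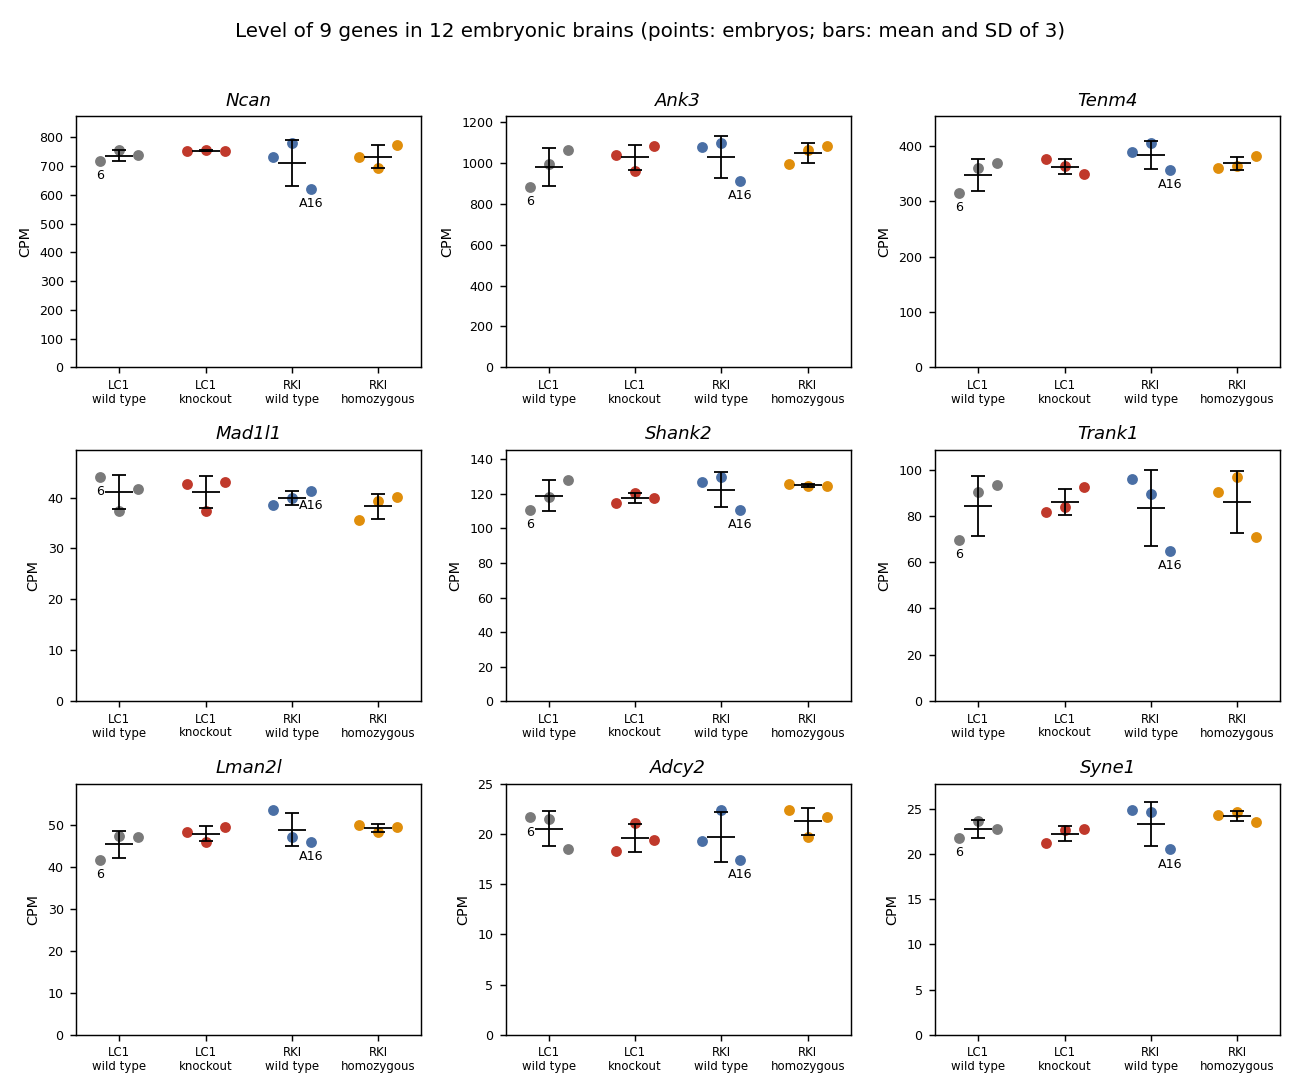
Level of each of the 9 genes in CPM (linear axes from 0) in the 12 embryos, by group; points are embryos, and bars give the mean and SD of 3, with embryos 6 and A16 marked. Each mutant group overlaps its wild types for every gene, and Trank1 is spread most, from 65.0 to 96.9 CPM.

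None of the 9 genes passed the threshold in either experiment. By the quasi-likelihood test of edgeR, adjusted over all genes, the p of each was 1 for LC1 and for RKI, and 0 of 9 reached an unadjusted p under 0.05, against 2.09% of the 16002 genes for LC1 and 1.92% for RKI. Over all genes the share past the adjusted threshold was 0.0% in both, and DESeq2 and limma-voom called 0 as well. For LC1, 5 of the 9 estimates were above 0 and 4 below, from -0.06 (Adcy2) to 0.08 (Lman2l) on the log2 scale, with a median of 0.03 against -0.003 for all genes, of which 48.6% were above 0. For RKI, 7 were above 0 and 2 below, from -0.06 (Mad1l1) to 0.12 (Adcy2), with a median of 0.03 against 0.0012 and 50.6% above 0. Without A16 only Adcy2 stayed above 0 in RKI, and the values ran from -0.11 (Tenm4) to 0.03. Without wild type 6, 3 of the LC1 values were above 0 and 6 below, from -0.10 (Trank1) to 0.05 (Mad1l1). Standard errors were 0.0654 to 0.147, so the 95% intervals allow folds of 0.815 to 1.27 for LC1 and 0.822 to 1.28 for RKI, with Trank1 at both ends.

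The groups overlapped for all 9 genes in both experiments. Over all genes, all 3 mutants were above all 3 wild types in 3.36% for LC1 and 2.59% for RKI, and below in 3.81% and 3.07%. The difference between the RKI and the LC1 effect was tested in the same fit. It ran from -0.12 (Tenm4) to 0.18 (Adcy2), with an adjusted p of 0.9998 by edgeR for each of the 9. None reached an unadjusted p under 0.05, against 2.42% of all genes, and 0.0% of all genes passed the adjusted threshold. Replicates are separate embryos.

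**Figure D2:**
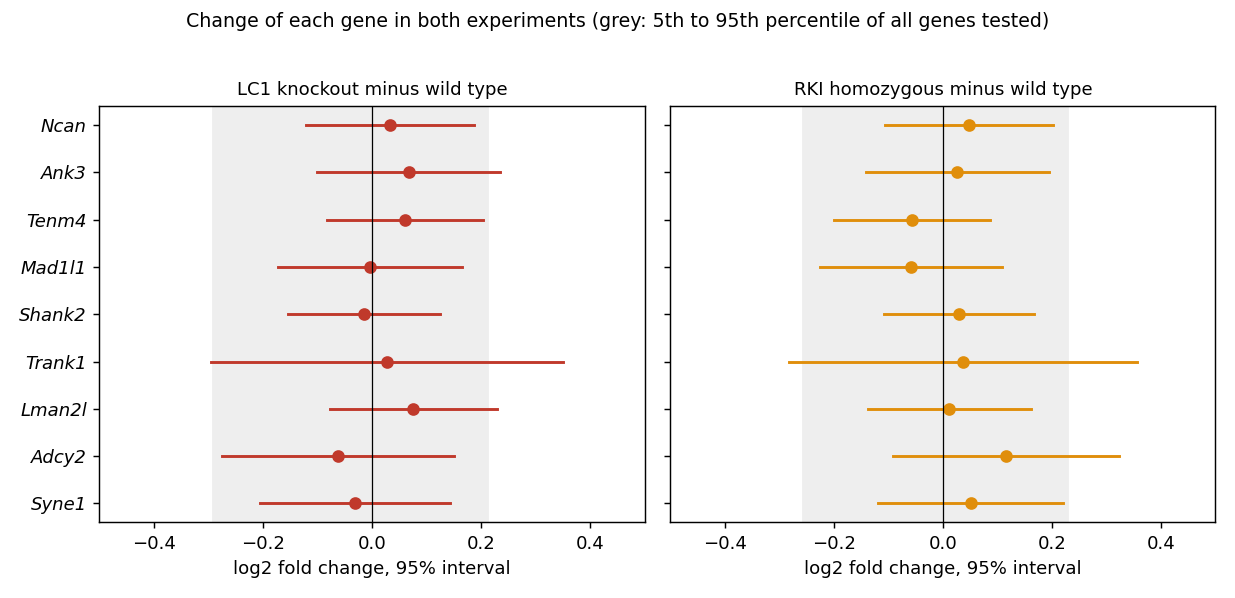
Log2 fold change of each gene with its 95% interval, LC1 knockout minus wild type on the left and RKI homozygous minus wild type on the right, with the 5th to 95th percentile of all 16002 genes in grey. Every interval contains 0, and the estimates lie between -0.06 and 0.12.

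Ank3 (ENSMUSG00000069601; chromosome 10, 69398773 to 70027438, plus strand, GENCODE M21 on GRCm38) was the longest gene by exon content. Embryos 6, 26 and 73, the LC1 wild types, had 880, 994 and 1062 CPM of Ank3, and knockouts 7, 22 and 71 had 1035, 961 and 1081. In RKI wild types A2, A9 and A16 it was at 1077, 1094 and 912 CPM, against 992, 1063 and 1082 CPM in homozygotes A1, A10 and A18. Embryos 6 and A16 were low, and the other 10 lay between 961 and 1094. On the log2 scale knockouts differed from wild types by 0.07 (SE 0.0798, 95% interval -0.10 to 0.24), and homozygotes by 0.03 (SE 0.0797, 95% interval -0.14 to 0.19). Without wild type 6 the LC1 value was -0.0049, and without A16 the RKI value was -0.05. Among the ankyrins Ank3 was above Ank2 (18.6 ± 1.28 RPKM) and Ank1 (2.56 ± 0.203), the form best known from red cells, in mean level. Of 20 ankyrin, spectrin and initial segment genes tested, 11 had higher and 9 lower estimates in LC1 knockouts (median log2 fold change 0.01), and 20 higher and 0 lower in RKI homozygotes (median 0.04), and 0 passed the threshold in either experiment. Leaving A16 out gave RKI 7 higher and 13 lower estimates with a median of -0.02. For LC1 without wild type 6 they were 6 higher and 14 lower, with a median of -0.01. Sptbn4, a beta-spectrin, stood at -0.16 in LC1 (unadjusted p = 0.199) and Ank1 at 0.15 in RKI (unadjusted p = 0.0606), and the adjusted p by edgeR was 1 for each.

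The transcript table lists 44 Ank3 transcripts, of which 16 were at 0 in all 12 embryos and 17 above 0 in all. Transcript values are the authors' estimates, in which reads shared between isoforms are divided, and they carry that uncertainty. The giant exon of the neuronal forms spans 69986089 to 69993762 on chromosome 10 (7674 bases), and 3 listed transcripts hold a large stretch of it. Ank3-038 (ENSMUST00000186247), a partial 9-exon model of 8612 bases with the whole exon, was the highest transcript at 17.5 ± 1.28 RPKM, from 15.5 to 19.4 over the 12 embryos (SD, n = 12). Ank3-029 (7.68 ± 1.14 RPKM), annotated for nonsense-mediated decay, and Ank3-005 (6.42 ± 1.02 RPKM) hold parts of it. Together the 3 made up 35.5 to 44.3% of the summed Ank3 transcript RPKM and 58.1 to 62.1% of the summed estimated counts, and were above 0 in every embryo. Their share of RPKM was 41.3% ± 3.31 in LC1 wild types, 39.4% ± 4.27 in LC1 knockouts, 37.6% ± 2.03 in RKI wild types and 40.0% ± 3.80 in RKI homozygotes (SD, n = 3 each). These ranges overlap between all groups.

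By RPKM the other leading Ank3 transcripts were the short Ank3-034 (12.1 ± 2.27 RPKM), the 43-exon Ank3-001 (7.68 ± 0.345 RPKM) and the short Ank3-032 (7.78 ± 2.58 RPKM). Of the estimated counts Ank3-034 held 2.98%, Ank3-001 19.2% and Ank3-032 1.67%. Ank3-034 has no base of its own, whereas 27.8% of Ank3-038 and 25.7% of Ank3-001 are in no other. Of the other giant-exon transcripts, Ank3-029 has no base of its own and Ank3-005 has 30 of 8309. The 534-base Ank3-039, which begins inside the giant exon, was estimated at 0 in embryos 26 and A1 and at 14.8 RPKM in embryo 73. Among the tested Ank3 transcripts 0 of 22 passed the threshold by edgeR in either experiment. Ank3-034 had the smallest p in LC1, with a log2 fold change of 0.37 (SE 0.195, unadjusted p = 0.0903), and it was 0.09 (SE 0.194, unadjusted p = 0.641) in RKI.

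Tenm4 (ENSMUSG00000048078; chromosome 7, 96171246 to 96911093, plus strand) had the largest estimate between the wild types of the lines. Tenm4 stood at 315, 360.1 and 370 CPM in LC1 wild types 6, 26 and 73 and at 376, 365 and 349 CPM in knockouts 7, 22 and 71. Embryos A2, A9 and A16, wild type in the RKI line, had 389.9, 405 and 357 CPM, and homozygotes A1, A10 and A18 had 360.3, 365 and 382 CPM. Embryo 6 was the lowest and A9 the highest, and the homozygotes lay inside the range of the RKI wild types. Knockouts minus wild types gave 0.06 (SE 0.0681, 95% interval -0.08 to 0.20) in log2, and homozygotes minus wild types gave -0.06 (SE 0.0679, 95% interval -0.20 to 0.09). RKI wild types were 0.17 (SE 0.0825) above LC1 wild types on the log2 scale, with an unadjusted p of 0.053 and an adjusted p of 0.9998 by edgeR, and the CPM of the groups overlapped. This value was 0.0748 without A9 and 0.11 without wild type 6. Without A9 the RKI wild types left are male, so the sex term there comes from the RKI homozygotes alone. Tenm2 (24.8 ± 3.14 RPKM) and Tenm3 (22.0 ± 1.5) were above Tenm4 in mean level, and Tenm1 (4.21 ± 0.357) below it. The latrophilins, their receptors, were at 59.2 ± 3.35 (Adgrl1), 35.5 ± 2.29 (Adgrl2) and 10.8 ± 0.395 RPKM (Adgrl3). Of 9 teneurin, latrophilin and FLRT genes tested, 5 had higher and 4 lower estimates in LC1 knockouts (median log2 fold change 0.0049), and 5 higher and 4 lower in RKI homozygotes (median 0.01), and 0 passed the threshold in either experiment. With A16 left out, RKI had 0 higher and 9 lower estimates with a median of -0.03. With wild type 6 left out, LC1 had 4 higher and 5 lower with a median of -0.0061. In LC1 the smallest p-values were those of Adgrl2 at 0.09 (unadjusted p = 0.222) and Tenm1 at 0.07 (unadjusted p = 0.464). In RKI they were those of Flrt3 at -0.17 (unadjusted p = 0.0356) and Adgrl1 at 0.09 (unadjusted p = 0.259), and all had an adjusted p of 1 by edgeR; Flrt3 encodes an adhesion ligand of latrophilins.

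Of 12 listed Tenm4 transcripts, the 704-base Tenm4-004 had the highest RPKM, 9.63 ± 1.81 RPKM, but only 4.43% of the gene's estimated counts. Tenm4-009, a 33-exon coding transcript of 13172 bases, stood at 7.36 ± 0.496 RPKM and took 64.8% of the counts. Tenm4-001, which starts at 96171246 on chromosome 7, 39391 bases upstream of Tenm4-009, stood at 2.23 ± 0.330 RPKM (SD, n = 12 each). In the estimates the downstream start therefore carried more of the long RNA. Tenm4-009 differed by 0.07 (SE 0.0846, unadjusted p = 0.459) in LC1 and -0.03 (SE 0.0846, unadjusted p = 0.757) in RKI, and Tenm4-001 by -0.10 (SE 0.178, unadjusted p = 0.595) and -0.01 (SE 0.177, unadjusted p = 0.96). The lengths behind the deposited values of Tenm4-001 and Tenm4-010 exceed the GENCODE M21 models by a factor of 1.24, so those models differ between the annotations.

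Ncan (ENSMUSG00000002341; chromosome 8, 70093085 to 70120873, minus strand) was the most abundant of the lecticans in mean level. In LC1 wild types 6, 26 and 73 Ncan was at 717, 755 and 737 CPM, and in knockouts 7, 22 and 71 at 752, 756 and 751 CPM. Among RKI embryos, wild types A2, A9 and A16 stood at 730.4, 779 and 621 CPM and homozygotes A1, A10 and A18 at 732, 692 and 774 CPM. A16 was the lowest embryo and A10 the next, and the other 10 lay between 717 and 779. Fitted log2 fold changes were 0.03 (SE 0.0732, 95% interval -0.12 to 0.19) in LC1 and 0.05 (SE 0.0732, 95% interval -0.11 to 0.20) in RKI. Without A16 the RKI value was -0.05. Versican (Vcan) was at 48.8 ± 3.62 RPKM, brevican (Bcan) at 5.5 ± 0.813 and aggrecan (Acan), which did not pass the filter, at 0.0384 ± 0.0129 (SD, n = 12 each). Among the link protein genes, Hapln3 was at 1.35 ± 0.247, Hapln1 at 0.479 ± 0.166 and Hapln4 at 0.270 ± 0.0350 RPKM. Hapln2, which was not tested, was at 0.0674 ± 0.0358 RPKM. Of 12 lectican, hyaluronan and matrix genes tested, 3 had higher and 9 lower estimates in LC1 knockouts (median log2 fold change -0.07), and 6 higher and 6 lower in RKI homozygotes (median -0.02), and 0 passed the threshold in either experiment. Leaving A16 out gave RKI 5 higher and 7 lower estimates with a median of -0.07. For LC1 without wild type 6 they were 2 higher and 10 lower, with a median of -0.08. Has3, a hyaluronan synthase, was 41.3 ± 1.59 CPM in LC1 wild types and 36.1 ± 1.47 in knockouts (SD, n = 3 each), with no overlap. Over all genes, 3.81% were lower in LC1 knockouts without overlap. The values with the smallest p in LC1 were Has3 at -0.19 (unadjusted p = 0.012) and Cd44 at -0.18 (unadjusted p = 0.307), and in RKI Hapln1 at -0.51 (unadjusted p = 0.106) and Has1 at -0.42 (unadjusted p = 0.108), each with an adjusted p of 1 by edgeR. The authors list 1 Ncan transcript, Ncan-001, at 37.4 ± 2.01 RPKM.

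Syne1 (ENSMUSG00000096054; chromosome 10, 5020917 to 5551482, minus strand) was low per length. Embryos 6, 26 and 73, the LC1 wild types, had 21.8, 23.8 and 22.8 CPM of Syne1, and knockouts 7, 22 and 71 had 21.3, 22.7 and 22.8. In RKI wild types A2, A9 and A16 it was at 24.9, 24.7 and 20.5 CPM, against 24.4, 24.7 and 23.6 CPM in homozygotes A1, A10 and A18. A16 was lowest, and A2 highest. On the log2 scale knockouts differed from wild types by -0.03 (SE 0.0830, 95% interval -0.21 to 0.14), and homozygotes by 0.05 (SE 0.0806, 95% interval -0.12 to 0.22). Without A16 the RKI value was -0.03. Nesprin-2 (Syne2) was higher at 12.5 ± 1.68 RPKM, and Syne3 (0.325 ± 0.05) and Syne4 (0.655 ± 0.116) were lower. The SUN proteins that hold nesprins in the nuclear envelope were at 11.2 ± 0.609 (Sun1) and 12.9 ± 0.690 RPKM (Sun2). Of 12 nesprin, SUN and lamina genes tested, 9 had higher and 3 lower estimates in LC1 knockouts (median log2 fold change 0.05), and 3 higher and 9 lower in RKI homozygotes (median -0.04), and 0 passed the threshold in either experiment. With A16 left out, RKI had 7 higher and 5 lower estimates with a median of 0.00046. With wild type 6 left out, LC1 had 6 higher and 6 lower with a median of 0.0026. The smallest p-values were those of Tor1a at -0.14 (unadjusted p = 0.0871) and Lmnb1 at 0.07 (unadjusted p = 0.246) in LC1, and of Lbr at -0.13 (unadjusted p = 0.199) and Sun2 at 0.07 (unadjusted p = 0.301) in RKI, with an adjusted p of 1 by edgeR for each. The estimates favoured the 3′ end of the gene: the 17-exon Syne1-001, from the internal start shown above, stood at 2.44 ± 0.175 RPKM and the 32-exon Syne1-005, from the 5′ start, at 0.241 ± 0.0293 RPKM. Syne1-001 was higher in all 12 embryos, with 89.8 to 92.5% of the summed RPKM. No listed transcript spans the whole gene, and the length behind the deposited Syne1-001 values is 1.41 times that of the GENCODE M21 model, so its ends may differ from those given here. In GENCODE M21, Syne1-001 covers 5021579 to 5069063 and Syne1-005 covers 5336941 to 5550692. The gene RPKM of Syne1 divides by 11816 bases. Exons between the 2 stretches may therefore be missing from the level and fold changes of the gene, which was not tested. The libraries were selected by their poly(A) tails, and coverage along the gene was not analysed here.

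Mad1l1 (ENSMUSG00000029554; chromosome 5, 140008689 to 140321552, minus strand) differed least of all 9 genes in LC1. Mad1l1 stood at 44.1, 37.4 and 41.6 CPM in LC1 wild types 6, 26 and 73 and at 42.7, 37.4 and 43.1 CPM in knockouts 7, 22 and 71. Embryos A2, A9 and A16, wild type in the RKI line, had 38.5, 39.9 and 41.4 CPM, and homozygotes A1, A10 and A18 had 35.5, 39.4 and 40.0 CPM. Embryo 6, lowest for 4 of the other genes, was the highest for Mad1l1, and A1 was the lowest. Knockouts minus wild types gave -0.0031 (SE 0.0800, 95% interval -0.17 to 0.17) in log2, and homozygotes minus wild types gave -0.06 (SE 0.0791, 95% interval -0.22 to 0.11). Of 15 spindle checkpoint genes tested, 9 had higher and 6 lower estimates in LC1 knockouts (median log2 fold change 0.01), and 2 higher and 13 lower in RKI homozygotes (median -0.15), and 0 passed the threshold in either experiment. For LC1 without wild type 6 they were 10 higher and 5 lower, with a median of 0.05. Leaving A16 out gave RKI 10 higher and 5 lower estimates with a median of 0.05. The median over the list lay at -0.15 in RKI with A16 and at 0.05 without it; A16 had the highest sum of neural progenitor markers, and the part of progenitor content in these values was not tested. Aurkb, the Aurora B kinase, was at 25.9 ± 2.80 CPM in LC1 wild types, 31 ± 2.26 in LC1 knockouts, 30.2 ± 5.36 in RKI wild types and 25.2 ± 1.10 in RKI homozygotes (SD, n = 3 each). In LC1 the smallest p-values were those of Aurkb at 0.25 (unadjusted p = 0.0308) and Mad2l2 at 0.13 (unadjusted p = 0.0611), and in RKI those of Aurkb at -0.26 (unadjusted p = 0.0248) and Cdc20 at -0.19 (unadjusted p = 0.0574), with an adjusted p of 1 by edgeR throughout. The full-length Mad1l1-001 held 92.2 to 100% of the summed Mad1l1 transcript RPKM at 9.94 ± 0.801 RPKM, and the 4 others listed were not tested for lack of counts.

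Adcy2 (ENSMUSG00000021536; chromosome 13, 68620043 to 68999541, minus strand) had the largest RKI estimate among the 9. In LC1 wild types 6, 26 and 73 Adcy2 was at 21.7, 21.5 and 18.5 CPM, and in knockouts 7, 22 and 71 at 18.4, 21.1 and 19.4 CPM. Among RKI embryos, wild types A2, A9 and A16 stood at 19.3, 22.4 and 17.4 CPM and homozygotes A1, A10 and A18 at 22.4, 19.8 and 21.8 CPM. A16 was the lowest of all 12, and A1 and A9, 1 in each RKI group, shared the highest value. Fitted log2 fold changes were -0.06 (SE 0.101, 95% interval -0.28 to 0.15) in LC1 and 0.12 (SE 0.0985, 95% interval -0.09 to 0.32) in RKI. The RKI value was 0.03 without A16 and 0.26 without A9, the latter with an unadjusted p of 0.0257 by edgeR. With the sex term, the fit without A9 compares only males, A2 and A16 against A1 and A18. Whichever RKI embryo was left out, the smallest adjusted p by edgeR was 0.558. Among the cyclases Adcy5 (16.4 ± 1.09 RPKM), Adcy1 (12.8 ± 1.52) and Adcy6 (11.8 ± 0.664) were above Adcy2, and Adcy3 (4.07 ± 0.322), Adcy9 (3.10 ± 0.311), Adcy8 (2.02 ± 0.169) and Adcy7 (1.27 ± 0.0910) below it in mean level. Of 18 cyclase, G protein, protein kinase A and phosphodiesterase genes tested, 10 had higher and 8 lower estimates in LC1 knockouts (median log2 fold change 0.0049), and 16 higher and 2 lower in RKI homozygotes (median 0.06), and 0 passed the threshold in either experiment. With A16 left out, RKI had 12 higher and 6 lower estimates with a median of 0.02. With wild type 6 left out, LC1 had 9 higher and 9 lower with a median of 3.0e-05. The smallest p-values belonged to Prkaca at 0.07 (unadjusted p = 0.263) and Adcy7 at -0.09 (unadjusted p = 0.458) in LC1 and to Prkar2b at 0.13 (unadjusted p = 0.0669) and Prkaca at 0.10 (unadjusted p = 0.124) in RKI, all with an adjusted p of 1 by edgeR; the Prka genes encode subunits of protein kinase A. Adcy2-201, the 1 transcript listed, stood at 2.64 ± 0.248 RPKM.

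Lman2l (ENSMUSG00000001143; chromosome 1, 36419871 to 36445271, minus strand) had the largest LC1 estimate. Embryos 6, 26 and 73, the LC1 wild types, had 41.6, 47.4 and 47.1 CPM of Lman2l, and knockouts 7, 22 and 71 had 48.2, 45.9 and 49.4. In RKI wild types A2, A9 and A16 it was at 53.4, 47.2 and 46.0 CPM, against 50.04, 48.2 and 49.6 CPM in homozygotes A1, A10 and A18. Embryo 6 was the lowest and A2 the highest. On the log2 scale knockouts differed from wild types by 0.08 (SE 0.0725, 95% interval -0.08 to 0.23), and homozygotes by 0.01 (SE 0.0710, 95% interval -0.14 to 0.16). Without wild type 6 the LC1 value was 0.02. Its relative Lman2, another cargo lectin, was higher at 26.6 ± 1.05 RPKM, Lman1 was at 9.21 ± 0.588 and Lman1l, which was not tested, at 0.0378 ± 0.0318. Of 14 cargo lectin and COPII coat genes tested, 6 had higher and 8 lower estimates in LC1 knockouts (median log2 fold change -0.01), and 6 higher and 8 lower in RKI homozygotes (median -0.01), and 0 passed the threshold in either experiment. Leaving A16 out gave RKI 7 higher and 7 lower estimates with a median of 0.00098. For LC1 without wild type 6 they were 10 higher and 4 lower, with a median of 0.02. Smallest in p were Sec13 at -0.17 (unadjusted p = 0.0483) and Sec31a at 0.10 (unadjusted p = 0.131) in LC1 and Sec31a at -0.09 (unadjusted p = 0.168) and Lman1 at -0.09 (unadjusted p = 0.182) in RKI, with an adjusted p of 1 by edgeR.

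Lman2l was split over 6 transcripts in the estimates. Lman2l-001 (4.58 ± 0.398 RPKM) varied least of the 4 leading forms, relative to its mean. The variants annotated for nonsense-mediated decay, Lman2l-006 (5.37 ± 1.71 RPKM) and Lman2l-003 (4.37 ± 1.02 RPKM), made up 28.8% ± 6.55 and 24.1% ± 6.11 of the summed RPKM. Of the estimated counts the 689-base Lman2l-006 held 9.24% and Lman2l-003 24.4%, against 39.7% for the coding Lman2l-001. The coding Lman2l-002 was at 2.17, 1.53 and 3.39 RPKM in LC1 wild types and 0.667, 0.714 and 1.46 in knockouts, which did not overlap, with a log2 fold change of -1.34 (SE 0.465, unadjusted p = 0.0184). In RKI it was at 1.65, 1.27 and 0.910 RPKM in wild types and 1.05, 2.59 and 2.56 in homozygotes, which did, with 0.69 (SE 0.458, unadjusted p = 0.165). Lman2l-003 was 4.92, 5.34 and 5.48 RPKM in RKI wild types and 4.73, 3.33 and 4.29 in homozygotes, without overlap, at -0.36 (SE 0.260, unadjusted p = 0.203), and 0.53 (SE 0.261, unadjusted p = 0.0714) in LC1. Each had an adjusted p of 1 by edgeR. Lman2l-002 has 33 bases of its own and Lman2l-003 none. The authors' deposited table gives -1.31 for Lman2l-002 in LC1, with an unadjusted p of 0.00346 and an adjusted p of 1.

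Shank2 (ENSMUSG00000037541; chromosome 7, 144001928 to 144424494, plus strand) had the smallest standard errors of the 9 genes. Shank2 stood at 111, 118 and 128 CPM in LC1 wild types 6, 26 and 73 and at 115, 121 and 118 CPM in knockouts 7, 22 and 71. Embryos A2, A9 and A16, wild type in the RKI line, had 127, 129.9 and 111 CPM, and homozygotes A1, A10 and A18 had 126, 124 and 125 CPM. The 3 homozygotes were close together, and embryos 6 and A16 were the lowest. Knockouts minus wild types gave -0.02 (SE 0.0660, 95% interval -0.15 to 0.12) in log2, and homozygotes minus wild types gave 0.03 (SE 0.0654, 95% interval -0.11 to 0.17). Shank1 was higher at 40.9 ± 3.49 RPKM, and Shank3, at 10.2 ± 0.825, was near Shank2. Of 16 Shank, Homer, Dlg and other scaffold genes tested, 9 had higher and 7 lower estimates in LC1 knockouts (median log2 fold change 0.02), and 12 higher and 4 lower in RKI homozygotes (median 0.03), and 0 passed the threshold in either experiment. With A16 left out, RKI had 3 higher and 13 lower estimates with a median of -0.04. With wild type 6 left out, LC1 had 9 higher and 7 lower with a median of 0.0042. The smallest p-values were those of Dlgap4 at 0.07 (unadjusted p = 0.232) and Homer1 at 0.07 (unadjusted p = 0.309) in LC1 and of Homer2 at -0.12 (unadjusted p = 0.0632) and Dlg1 at -0.08 (unadjusted p = 0.222) in RKI, with an adjusted p of 1 by edgeR each.

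All 5 Shank2 transcripts were above 0 in every embryo. Shank2-002, which starts at 144175529 on chromosome 7, led at 2.98 ± 0.333 RPKM, and the short non-coding Shank2-004 followed at 2.53 ± 0.529 RPKM. Of the estimated counts Shank2-002 held 54.8%, Shank2-003 27.2% and Shank2-004 only 3.55%. Shank2-001, the longest coding model, with the 5′-most start, was at 0.316 ± 0.0508 RPKM (SD, n = 12 each), so RNA of the shorter forms prevailed. Shank2-003 (ENSMUST00000146006; 144284439 to 144424482, 11 exons, 7666 bases) was at 1.48, 2.03 and 2.04 RPKM in LC1 wild types 6, 26 and 73 and at 1.44, 1.35 and 1.44 in knockouts 7, 22 and 71. In RKI it was at 1.14, 1.08 and 1.38 RPKM in wild types A2, A9 and A16, whereas homozygotes A1, A10 and A18 had 1.75, 1.78 and 1.96 RPKM. All knockouts were therefore below all LC1 wild types, and all homozygotes above all RKI wild types. The log2 fold change was -0.39 (SE 0.126, unadjusted p = 0.0127) in LC1 and 0.62 (SE 0.126, unadjusted p = 0.000762) in RKI, with an adjusted p of 1 by edgeR in both. The difference between the effects, tested after these values were seen, was 1.01 with SE 0.177, an unadjusted p of 0.000286 and an adjusted p of 0.611 over the 47772 transcripts. Only 106 of its 7666 bases (1.38%) are in no other listed Shank2 transcript, so its estimate depends on how shared reads were divided. The wild types of the lines did not overlap either, at 1.85 ± 0.318 and 1.20 ± 0.156 RPKM (SD, n = 3 each). Shank2-002 had estimates opposite to these, 0.12 (SE 0.0937, unadjusted p = 0.238) in LC1 and -0.21 (SE 0.0933, unadjusted p = 0.0532) in RKI. In the authors' deposited table Shank2-003 stands at -0.392 for LC1 and 0.620 for RKI, with unadjusted p-values of 0.0523 and 0.0049 and adjusted p-values of 1.

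**Figure D3:**
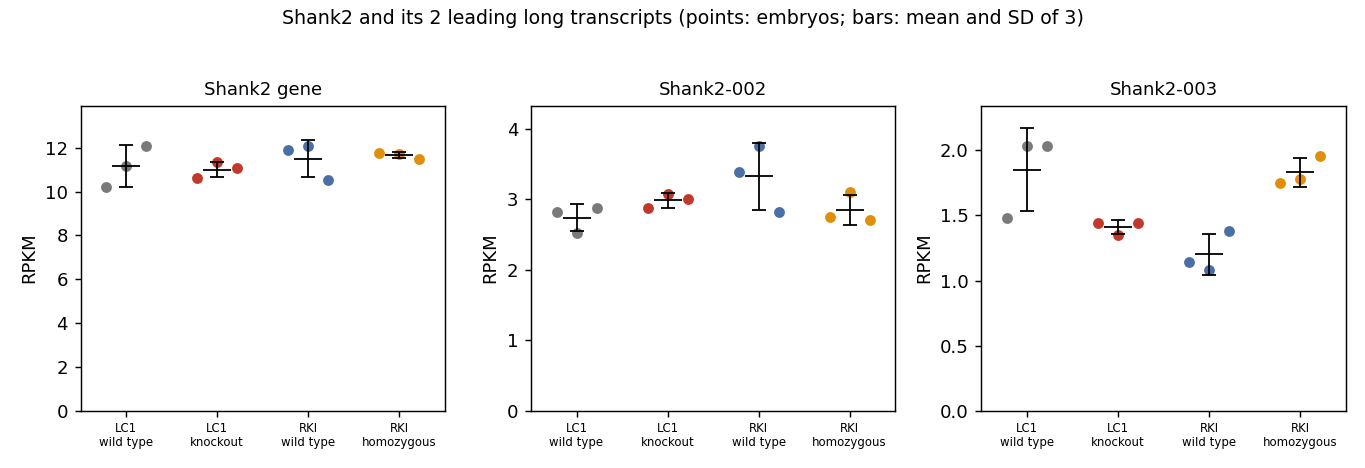
RPKM of the Shank2 gene and of Shank2-002 and Shank2-003 (linear axes from 0) by group; points are embryos, and bars give the mean and SD of 3. The gene lies between 10.2 and 12.1 RPKM throughout, and the Shank2-003 points separate in opposite directions in the LC1 and RKI pairs of groups.

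Over all transcripts of the 9 genes, 47 of 77 were tested, and 0 passed in either experiment by edgeR. Over the 47772 transcripts tested, 0.0% passed for LC1, for RKI and for the difference, and limma-voom called 0 for LC1 and RKI. An unadjusted p under 0.05 was found for 3 in LC1 (Shank2-003, Lman2l-002 and Tenm4-012), where 2.97% of all transcripts had one, and for 1 in RKI (Shank2-003), against 2.45%, and the share for the difference was 2.9%. Tenm4-012, a retained-intron form, was at 0.192, 0.179 and 0.404 RPKM in LC1 wild types and 0.121, 0.0917 and 0.128 in knockouts, with a log2 fold change of -1.18 (SE 0.498, unadjusted p = 0.0419). Groups did not overlap for 1 transcript higher (Ank3-013) and 3 lower in LC1 knockouts, against 3.7% and 3.89% of all transcripts, and for 1 higher and 2 lower (Tenm4-007 and Lman2l-003) in RKI homozygotes, against 3.49% and 4.09%. Gene counts and summed transcript estimates differed in size: the ratio was 1.01 for the median of 11529 genes but 2.05 for Trank1, 1.98 for Shank2 and Ncan, 1.85 for Ank3 and 1.77 for Tenm4. In counts, the transcript table therefore holds less than the gene table for these 5 genes.

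**Figure D4:**
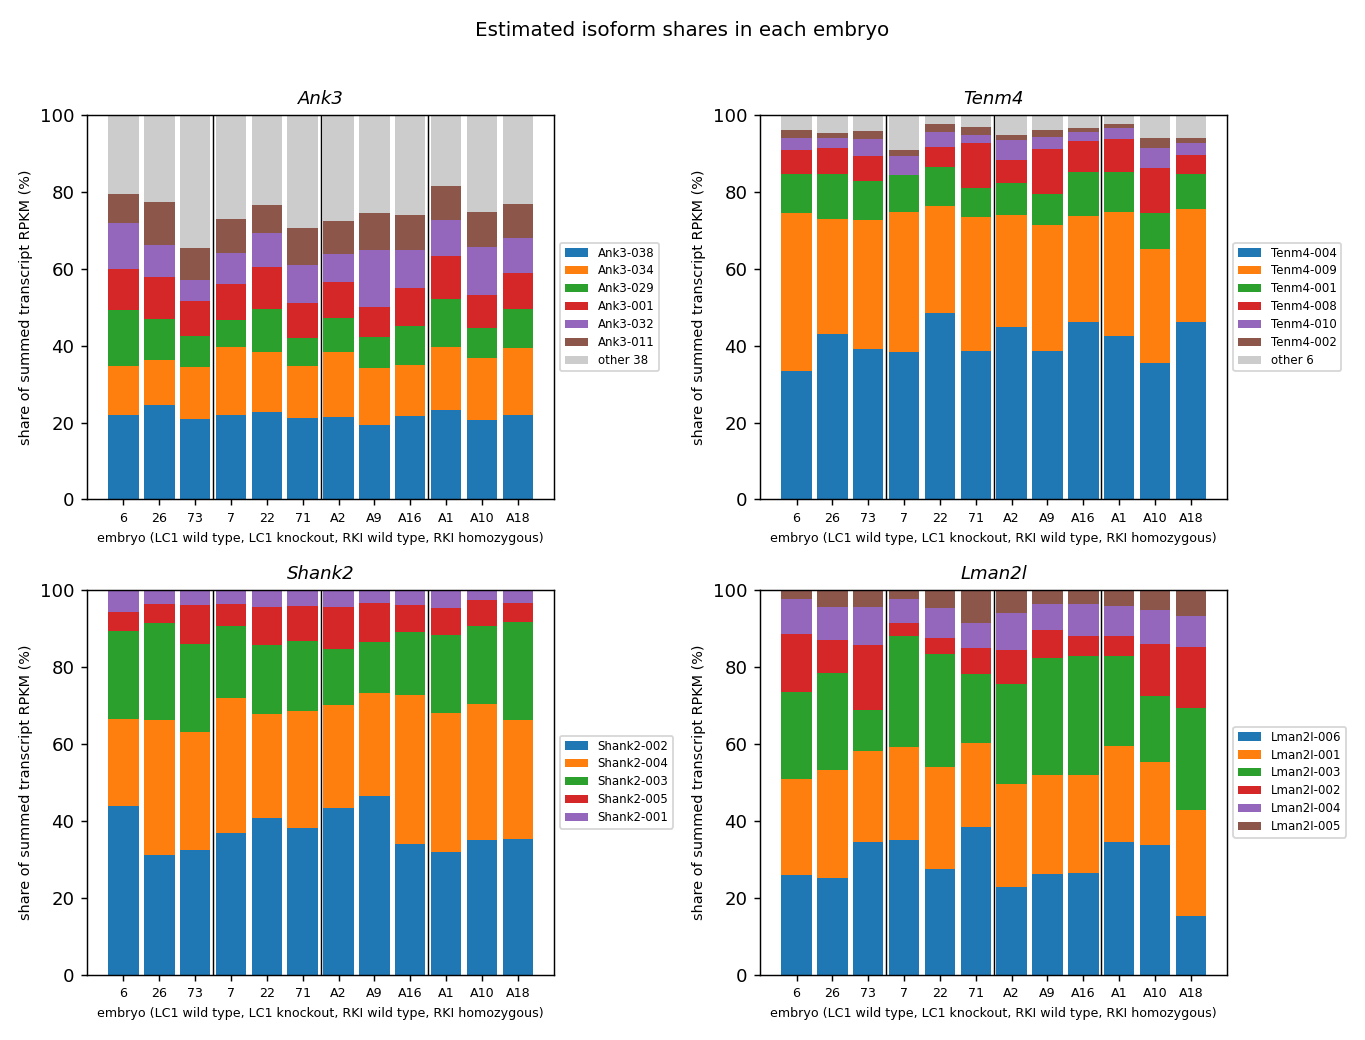
Share of the summed transcript RPKM of Ank3, Tenm4, Shank2 and Lman2l held by each of the 6 leading transcripts (all 5 for Shank2) in each of the 12 embryos; grey is the rest, and vertical lines divide the groups. Ank3-038 holds 19.4 to 24.7% of the Ank3 sum, and Lman2l-006 holds 28.8% ± 6.55 (SD) of the Lman2l sum.

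Trank1 (ENSMUSG00000062296; chromosome 9, 111311739 to 111395775, plus strand) had the largest spread between embryos of the 9. In LC1 wild types 6, 26 and 73 Trank1 was at 69.6, 90.3 and 93.2 CPM, and in knockouts 7, 22 and 71 at 81.6, 84.0 and 92.4 CPM. Among RKI embryos, wild types A2, A9 and A16 stood at 95.9, 89.5 and 65.0 CPM and homozygotes A1, A10 and A18 at 90.2, 96.9 and 70.9 CPM. A16, 6 and A18 had 65.0 to 70.9 CPM, and the other 9 had 81.6 to 96.9; the low embryos came from 3 of the 4 groups. Fitted log2 fold changes were 0.03 (SE 0.147, 95% interval -0.29 to 0.35) in LC1 and 0.04 (SE 0.146, 95% interval -0.28 to 0.36) in RKI. Without A16 the RKI value was -0.10, and without A2 it was 0.22. The SD of its log2 CPM over the 12 embryos was 0.196, above 98.9% of the 2210 genes of like level, whereas the SDs of the other 8 genes lay at the 30.3rd to 84.9th percentile of genes of their level. Embryos with neighbouring numbers, 1 of each genotype, differed by 0.112 on average over 6 pairs, and the 12 other wild type and mutant pairs of the same experiments by 0.254; no label ties numbers to litters. Mad1l1 had the same order, at 0.0458 and 0.117, as had Syne1, Lman2l and Shank2. Adcy2 had the opposite, at 0.172 and 0.128, as had Ank3, Tenm4 and Ncan. A single transcript, Trank1-003 of 22 exons, was listed, at 2.86 ± 0.390 RPKM. The gene most like Trank1 over the 12 embryos, of 16001, was Snhg11, a small nucleolar RNA host gene (Pearson r = 0.919 of log2 CPM, n = 12), followed by Tmem44 (r = 0.909). Snhg11 was at 105 CPM in A16, 131 in A18 and 152 in 6, and at 147 in 7 and 171 to 229.8 in the others. These r values were chosen as the highest and carry no p.

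The genes also varied with each other. Of the 36 pairs, 26 had a Pearson r above 0 in log2 CPM over the 12 embryos, and Mad1l1 was negative with all 8 others. Syne1 and Shank2 were the closest pair, with r = 0.835 (two-sided permutation p = 0.00082, 0.0295 adjusted over 36 pairs) and Spearman's rho = 0.706 (permutation p = 0.0127, 0.152 adjusted). Without the 2 embryos farthest from the median of Syne1, r was 0.732. In all, 5 pairs had an adjusted p under 0.05 by Pearson's r and none by Spearman's rho. The share among pairs of other genes was not measured, so these counts cannot be read as a trait of these genes. Ank3 and Shank2 had r = 0.757 (permutation p = 0.00394, and 0.0308 adjusted, as for the 3 pairs that follow) and rho = 0.629 (permutation p = 0.0321). For this pair r was 0.379 without the 2 embryos farthest for Ank3. For Ank3 and Tenm4 r was 0.745 (permutation p = 0.00379) and rho 0.678 (permutation p = 0.0188), and r was 0.479 without the 2 embryos farthest for Ank3. For Ank3 and Lman2l r was 0.736 (permutation p = 0.00395) and rho 0.573 (permutation p = 0.0556), and r was 0.389 without the 2 embryos farthest for Ank3. For Tenm4 and Shank2 r was 0.722 (permutation p = 0.00428) and rho 0.748 (permutation p = 0.00635), and r was 0.463 without the 2 embryos farthest for Tenm4. Leaving out the embryos farthest for 1 gene narrows its range and by itself tends to lower r. The falls in r therefore do not show that these relations rest on those embryos. The values share library scaling and the cell makeup of each brain. Over the 12 embryos and 16001 other genes, the genes most like each were Tmem63b (0.977) and Herc2 (0.961) for Ank3, Eif4g3 (0.952) and Rexo1 (0.920) for Tenm4, Kcnh2 (0.964) and Cux2 (0.946) for Ncan, and Rfng (0.961) and Dok6 (0.957) for Syne1, with Pearson r in brackets. They were Lefty2 (0.965) and Tmem179 (0.963) for Adcy2, Pgam1 (0.928) and Agpat2 (0.900) for Mad1l1, Afdn (0.913) and A830092H15Rik (0.908) for Lman2l and Farp1 (0.953) and Mical2 (0.929) for Shank2. Some were low in level: Lefty2 averaged 0.856 CPM, Agpat2 3.28 and Pgam1 3.49. All these r values were chosen as the highest and carry no p.

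**Figure D5:**
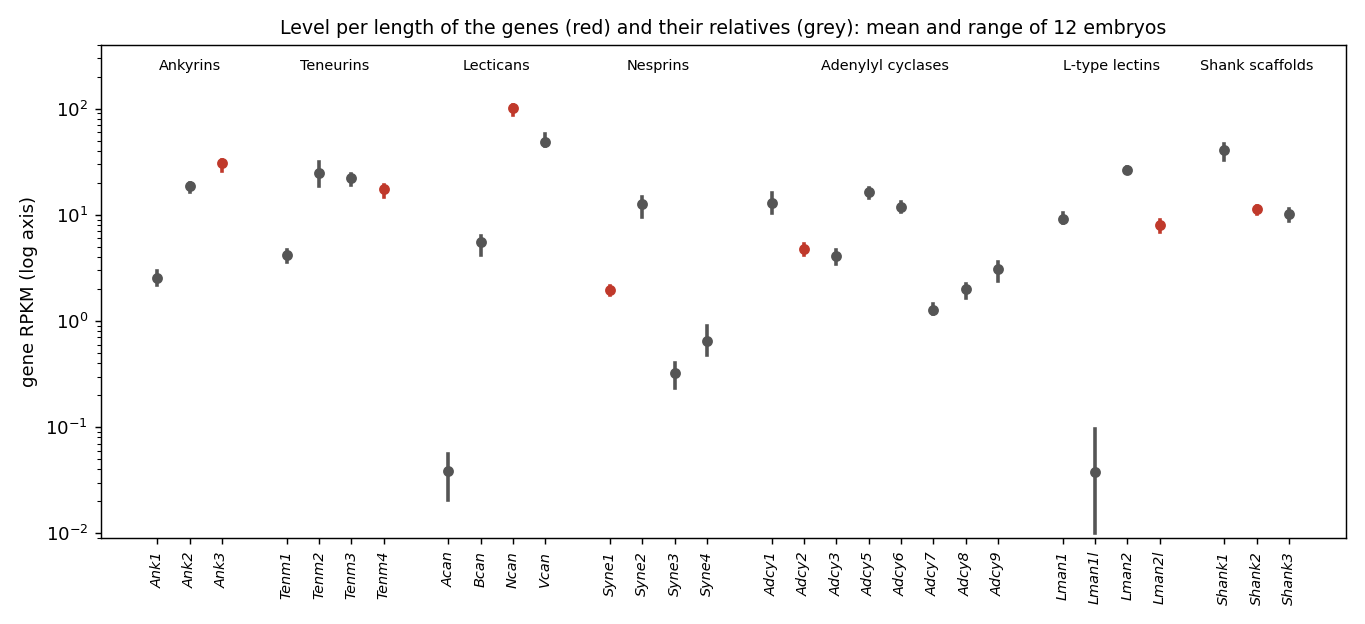
Gene RPKM on a log axis of the genes (red) and their relatives (grey), as the mean (point) and range (line) of 12 embryos; the range of Lman1l reaches 0, which a log axis cannot show. Ncan at 102 and Ank3 at 30.7 RPKM lead their families in mean level, and Tenm4, Syne1, Adcy2, Lman2l and Shank2 do not.

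Genes named for other bipolar disorder loci were read beside these 9. Of 25 such genes tested, 15 had higher and 10 lower estimates in LC1 knockouts (median log2 fold change 0.0043), and 11 higher and 14 lower in RKI homozygotes (median -0.003), and 0 passed the threshold in either experiment. Leaving A16 out gave RKI 7 higher and 18 lower estimates with a median of -0.01. For LC1 without wild type 6 they were 18 higher and 7 lower, with a median of 0.04. In LC1 the smallest p-values were those of Pou3f2 at 0.10 (unadjusted p = 0.142) and Rps6ka2 at 0.10 (unadjusted p = 0.154), and in RKI those of Add3 at -0.10 (unadjusted p = 0.156) and Cd47 at 0.12 (unadjusted p = 0.171), with an adjusted p of 1 by edgeR. Rps6ka2, a ribosomal S6 kinase, did not overlap between LC1 groups, at 53.8 ± 2.99 CPM in wild types and 57.6 ± 0.606 in knockouts (SD, n = 3 each). Among the context genes named above, Prkaca, Mad2l2 and Dlgap4 were also higher without overlap in LC1, against 3.36% of all genes. In RKI Aurkb and Homer2 were lower without overlap, against 3.07% of all genes. Between the lines, RKI wild types against LC1 wild types, 6 of the 9 genes were higher and 3 lower, from -0.02 (Ncan) to 0.17 (Tenm4), with a median of 0.08 against -0.01 for all genes, of which 47.9% were higher. None passed by edgeR (adjusted p of 0.9998 each) and none had an unadjusted p under 0.05, against 0.0125% and 3.89% of all genes. All 9 overlapped between the lines, where 3.36% of all genes were higher and 4.23% lower without overlap. Line, litter and any processing date cannot be told apart in this comparison. The authors' deposited tables give the 9 genes log2 fold changes of -0.0598 to 0.0816 for LC1 and -0.0634 to 0.115 for RKI, signed as mutant minus wild type, with no adjusted p under 0.937.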

How the data were processed

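RNA of 12 embryonic brains was sequenced after oligo-dT selection, per the labels' protocols. Tools listed in the submitters' processing notes, without their roles, are featureCounts 1.4.5 of the Subread package, STAR 2.0.4b, limma and edgeR. Build, annotation, strand setting and transcript tool were not given in the sources used here. Deposited by the authors were gene counts, estimated counts per transcript, RPKM for both, and tables of their own log2 fold changes with p-values and adjusted p-values. Groups were taken from the labels. Gene counts of all 12 libraries were fitted in 1 model with 4 group means and sex (edgeR 4.0.16 quasi-likelihood test, robust, TMM, filterByExpr with a minimum count of 10, Benjamini-Hochberg adjustment over 16002 genes, threshold 0.05, 7 residual degrees of freedom, R 4.3.3). Transcript estimates were rounded to whole numbers and fitted likewise over 47772 transcripts, where the biological coefficient of variation was 56%, against 6.94% for genes. Estimated transcript counts were not adjusted for the uncertainty of assignment. Without a known strand setting, reads of overlapping antisense genes cannot be told apart: GENCODE M21 on GRCm38 places 1 to 9 such genes over each of the 9 genes except Ncan and Trank1. Transcript models come from GENCODE M21, where all 77 identifiers matched, and promoters from RefSeq. The members and lists were chosen with earlier results of these data known. Named were all 9 genes, the 2 genes of each list with the smallest p in each experiment (none passed; 1 of them is not reported here), relatives by level, the 2 most correlated genes, and transcripts with a mean share of at least 10% in a group; other transcripts were named after their values were seen. DESeq2 1.42.0, limma-voom (limma 3.58.1), RLE size factors, no filter, no sex term, fits of only the groups compared and leaving out each embryo were the alternatives. The gene fit was tested on simulated gene counts for the LC1 comparison alone. The RKI, difference, line and transcript fits were not tested in this way. P-values measure the spread between embryos.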

Additional observations from a re-analysis of the deposited data

Results flagged for a closer look

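Shank2-003 had estimates of opposite sign in the 2 experiments. Its RPKM was lower in all 3 LC1 knockouts than in all 3 LC1 wild types and higher in all 3 RKI homozygotes than in all 3 RKI wild types. The RKI effect minus the LC1 effect was 1.01 on the log2 scale, with an unadjusted p of 0.000286 and an adjusted p of 0.611 by edgeR over the 47772 transcripts tested, so it did not pass the threshold. Leaving out 1 embryo gave log2 fold changes of -0.495 to -0.33 in LC1 and 0.55 to 0.72 in RKI. The transcript was picked out after its values were seen, and the 2 wild type groups also did not overlap.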

How the results depend on the processing

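No paired analysis was possible because the groups compared share no replicate numbers and no label ties an embryo to a litter; the block for neighbouring embryo numbers given here pairs embryos by number alone. No alternative brought any of the 9 genes or, in LC1 and RKI, their named transcripts past the threshold (the difference was not refitted for transcripts): over these alternatives the smallest adjusted p by edgeR, DESeq2 or limma-voom was 0.558 for the genes and 1 for the transcripts. Other size factors (RLE), DESeq2 and limma-voom kept every count of genes called at 0 for LC1, RKI and their difference and at 2 between the lines. Without a filter on low counts the counts were 4 for LC1, 26 for RKI, 17 for the difference, 28 for the lines and 2 for RKI transcripts. Without the sex term 1 RKI transcript was called. A block for neighbouring embryo numbers, chosen after seeing the data, gave 3 genes for RKI and 1 for the difference. Leaving out 1 embryo gave 0 to 2 genes for RKI (2 without A9 or A10, 1 without A1), 0 to 1 for the difference (1 without A1, A9 or A10), 1 to 2 for the lines (1 without 6, 26, 73 or A9), 0 to 1 transcripts for LC1 (1 without 22) and 0 to 7 for RKI (7 without A10, 3 without A1 or A9). A9 and A10 are the only females of their RKI groups. With the sex term kept, leaving out either set males A2 and A16 against males A1 and A18 in RKI. The RKI values without A9 and without A10 are therefore not separate checks. The line values without A9 took the sex term from the RKI homozygotes alone. The share of giant-exon transcripts in Ank3, 39.6% of RPKM on average, was 59.4% by estimated counts, a choice also added later. The genes kept their sign in 228 of 234 values under alternatives that kept all embryos, and the named transcripts in 206 of 210. The exceptions were Mad1l1 in LC1 without a filter (0.00446) or with the block (0.000867), Trank1 in the difference without a filter (-2.5e-05), Trank1 between lines without the sex term (-0.0135), and Ncan (0.0862) and Adcy2 (0.13) between lines when only those libraries were fitted. With only those libraries, males A2 and A16 set the sex term, as all LC1 wild types are female. The line values of that fit therefore compare A9 alone with the LC1 wild types. Mad1l1-001 in LC1 was -0.00401 by limma-voom, -0.00205 without a filter and -0.00289 with only the LC1 libraries, and Tenm4-001 in RKI was 0.00256 by limma-voom. Leaving out 1 embryo turned the sign of 22 of 36 gene values, and the ranges over the embryos left out follow. For LC1 they were Ank3 -0.00488 to 0.13, Tenm4 -0.00850 to 0.11, Trank1 -0.0952 to 0.11, Syne1 -0.0633 to 0.00123, Mad1l1 -0.0622 to 0.0626 and Shank2 -0.0670 to 0.0417. For RKI they were Ank3 -0.0482 to 0.0878, Ncan -0.0479 to 0.16, Trank1 -0.0971 to 0.22, Syne1 -0.0293 to 0.13, Lman2l -0.0452 to 0.0794 and Shank2 -0.0357 to 0.0760, with Adgrl1 -0.0146 to 0.18 among the context genes. For the difference they were Ank3 -0.12 to 0.0283, Ncan -0.0823 to 0.12, Trank1 -0.13 to 0.20, Mad1l1 -0.12 to 0.00569, Lman2l -0.12 to 0.00301 and Shank2 -0.0218 to 0.0935, and between the lines Ncan -0.25 to 0.0227, Adcy2 -0.32 to 0.0304, Mad1l1 -0.0805 to 0.0391 and Shank2 -0.0112 to 0.14. Among transcripts in LC1 they were Ank3-001 -0.00661 to 0.0425, Ank3-032 -0.00447 to 0.47, Tenm4-001 -0.25 to 0.0378, Ncan-001 -0.00181 to 0.0287, Trank1-003 -0.0741 to 0.0882, Adcy2-201 -0.14 to 0.0919, Mad1l1-001 -0.0743 to 0.0698, Lman2l-001 -0.0393 to 0.13 and Shank2-004 -0.18 to 0.19. In RKI they were Ank3-038 -0.0356 to 0.0858, Ank3-034 -0.0722 to 0.27, Ank3-001 -0.0100 to 0.10, Ank3-032 -0.14 to 0.11, Tenm4-009 -0.0946 to 0.0860, Tenm4-001 -0.10 to 0.13, Tenm4-012 -0.55 to 0.27, Ncan-001 -0.0605 to 0.13, Trank1-003 -0.10 to 0.19, Adcy2-201 -0.0335 to 0.25, Mad1l1-001 -0.11 to 0.0217, Lman2l-006 -0.23 to 0.57 and Lman2l-001 -0.0841 to 0.0429. The cause was not tested. With 3 embryos a group, SEs for the genes in LC1 and RKI were 0.0654 to 0.147, and the share of counting error in them was not separated.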
